A study of Mus musculus with 8 samples.

Results

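Inner cell mass (ICM) of day 3.5 blastocysts was compared with the average of 2 later states of the same lineage, the ICM of diapaused blastocysts and the day 6.5 post-implantation epiblast. The question was which transcripts moved the same way in the arrested and in the implanted embryo, and so changed after day 3.5 in spite of arrest. All 8 libraries of the series entered the comparison: 3 of ICM, 3 of diapaused ICM and 2 of epiblast, each a separate pool of about 50 embryos from C57BL/6 females. The diapaused group had been given tamoxifen and 0.5 mg of Depo Provera (a long-acting progestin) on day 3.5 and was collected 5 days after that, and no such treatment is given for the other groups. Blastocysts of both kinds came from superovulated females. Both kinds of ICM were freed of trophectoderm with antibody and complement, the epiblast was isolated from implanted embryos, and all RNA was amplified from very small amounts. Time after day 3.5, hormone treatment, arrest, implantation and the way the cells were isolated therefore cannot be told apart within a single pair of groups.

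The ICM gives rise to the epiblast, the pluripotent founder of the body, and to the primitive endoderm that surrounds it. It still carries transcripts of the oocyte and of the cleavage stages, and it expresses the genes of naive pluripotency, which the epiblast replaces by a primed set after implantation. In diapause the blastocyst waits in the uterus with little growth or division until hormones allow it to implant, and its pluripotent cells keep the ability to resume development.

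Of 38924 genes in the table, 17698 reached a level of 1 in at least 2 libraries and were tested. Levels are the authors' adjusted TPM. TPM is a length-corrected share of transcripts, and the further adjustment is not described. Differences are on the scale log2(level + 1), which understates changes of low genes. A value after ± beside a difference is its standard error. The mean of the diapaused and the epiblast group differed from ICM for 3062 genes (17.3% of those tested; limma, adjusted p under 0.05), while 5836 passed an unadjusted p of 0.05. Both later groups lay above ICM for 1389 of the called genes (7.85% of all tested) and both lay below it for 1332 (7.53%), and these 2721 genes are called shared higher and shared lower. The other 341 were called with opposite signs. Leaving out ICM replicate 1 gave 1760 calls (720 shared higher and 881 lower), leaving out epiblast replicate 1 gave 1550 (683 and 716), leaving out ICM replicate 2 gave 835 shared higher and leaving out epiblast replicate 2 gave 887 shared lower. A shared call tests the average only, so the smaller of the pairwise differences, here the lesser difference, shows how far a gene moved in both states.

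The lesser difference had a median of 0.63 over the shared higher genes and of -0.88 over the shared lower ones. It reached 1 in size for 320 higher and 550 lower genes, 2 for 45 and 119, and 3 for 17 and 48, but stayed under 0.25 for 239 and 142. Each of the pairwise comparisons with ICM also called 340 of the shared higher genes (1.92% of all tested) and 532 of the shared lower ones (3.01%), against backgrounds of 13.3% called for diapaused ICM against ICM and 30.1% for epiblast against ICM. Those comparisons share the ICM libraries. All 5 later libraries stood above all 3 ICM libraries for 860 of the shared higher genes, and below them for 906 of the shared lower ones, where 7.36% and 6.49% of all tested genes did so. The calls rest on these same libraries, so such separation among called genes is largely built in and is no separate result. At the threshold itself, the predicted gene Gm10064 lay just inside (adjusted p = 0.05, average difference 0.80 ± 0.24) and Gm9174 just outside (adjusted p = 0.0501, 1.27 ± 0.38).

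**Figure D1:**
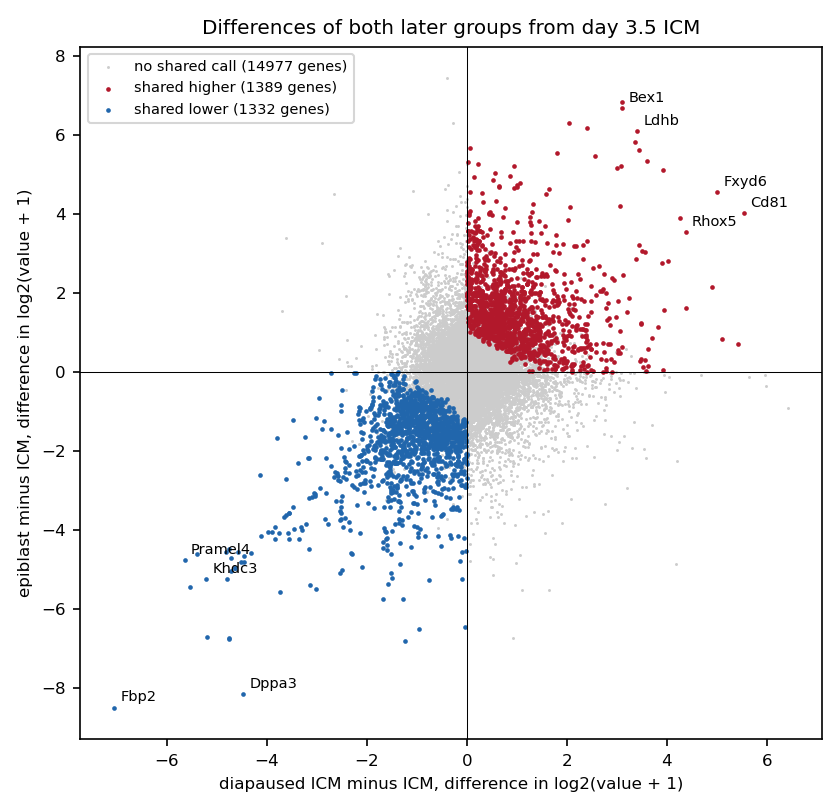
Each point is 1 of the 17698 tested genes, with the difference of diapaused ICM from ICM in log2(level + 1) on the x axis and that of epiblast from ICM on the y axis. Red points are the 1389 shared higher genes, blue points the 1332 shared lower genes and grey points the rest, and the named genes have large differences on both axes. Both axes use the same ICM libraries, so the slant of the cloud is no measure of likeness between the later groups.

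The shared lower genes were the more abundant ones at the start. Their median level went from 16.6 in ICM through 7.48 in diapaused ICM to 3.89 in epiblast, and 130 of them were under 1 in every later library. The median shared higher gene went from 2.23 through 5.50 to 8.02, and 402 of these genes were under 1 in every ICM library. Those 402 passed the filter only through later libraries and could hardly come out lower. Genes low in ICM have little room to fall, and both sets were chosen by these same values. The contrast in starting level and the course of the medians were therefore largely set in advance and are no separate result. Epiblast lay further from ICM than diapaused ICM did for 578 of the shared higher genes and for 525 of the shared lower genes. Diapaused ICM lay further for 179 and 79, and for 632 and 728 the comparison of epiblast with diapaused ICM, which called 34.5% of all genes, made no call. These counts lean on single libraries: without epiblast replicate 1 they were 237 and 192 for epiblast further and 84 and 21 for diapaused ICM further, and without epiblast replicate 2 those for diapaused ICM further were 79 and 18. The count of shared higher genes with epiblast further was 300 without ICM replicate 1, 365 without ICM replicate 2 and 370 without diapaused ICM replicate 3, and that of shared lower genes was 278 without epiblast replicate 2. The 79 shared lower genes with diapaused ICM further became 41 and 46 without ICM replicates 1 and 3, and 50 and 47 without diapaused ICM replicates 1 and 2.

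The split between higher and lower depends on the scaling. The column sums ran from 720674 to 1179026, and as deposited 51% of shared calls were higher, with a median average difference over all tested genes of 0.0994. After scaling every library to the same sum that median was -0.111 and 28.8% of shared calls were higher, 777 against 1925. Of the genes shared as deposited, 775 of the higher and all 1332 of the lower were still shared then. With levels as deposited, leaving out ICM replicate 2 gave a share of 40.5% higher. Counts of higher genes are therefore given below also for equal sums. Each library held 14634 to 15130 genes with a level of 1 or more. The nucleolar gene Npm1 held 8.41% to 9.71% of the epiblast libraries against 0.978% to 3.21% of the others, and mitochondrial mRNA held 0.62% to 0.748% of epiblast, 1.26% to 2.13% of diapaused ICM and 1.97% to 2.88% of ICM.

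Markers were checked against the labels. Pou5f1, which encodes the pluripotency factor Oct4, was at 66.2 to 135 in every library. The summed level of 26 naive pluripotency genes was 3070 to 3180 in ICM, 1470 to 1730 in diapaused ICM and 113 to 134 in epiblast. Over the 25 of them tested, the median difference from ICM was only -0.135 in diapaused ICM and -3.59 in epiblast. Within that sum, Dppa3 alone was at 1051, 1361 and 987 in ICM, 45.9, 59.6 and 44.2 in diapaused ICM and 3.68 and 2.31 in epiblast. The summed level of 21 primitive endoderm markers was 880 to 1230, 2630 to 3010 and 124 to 128 in the same order, that of 20 trophectoderm markers 215 to 287, 483 to 855 and 162 to 192, and that of 11 visceral endoderm markers other than Rhox5 18.2 to 35.7, 82.1 to 84.7 and 39.4 to 84.4. Of the primitive endoderm markers 5 were shared higher and 1 lower, of the trophectoderm markers 4 (1 without epiblast replicate 2, and 2 without ICM replicate 1 or 2, diapaused ICM replicate 3 or epiblast replicate 1) and 1. The 3 blood and immune markers tested summed to 5.2 to 11 in ICM, 47.9 to 135 in diapaused ICM and 6.08 to 39.6 in epiblast. The 4 uterine ones summed to 9.17 to 18.3, 5.91 to 9.81 and 4.2 to 5.5, and the 7 primitive streak ones to 17.3 to 20.9, 9.01 to 11.7 and 27.6 to 40.3. Some markers of blood (Ptprc, Hba-a1), uterus (Pgr, Esr1, Hand2), trophoblast (Gata2, Krt7, Hand1, Ascl2) and visceral endoderm (Afp, Rbp4, Ihh) reached a level of 1 in fewer than 2 libraries. Others of the same lists did reach it, 20 of 30 for trophectoderm and 12 of 20 for visceral endoderm. Of those 12, 5 were shared higher (41.7%, and 3 without ICM replicate 1) and 1 lower (8.33%), against 7.85% and 7.53% of all genes. The part of these cells in the results below was not tested. In pooled cells, fewer cells of a type and less RNA per cell cannot be told apart.

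Among the 12 higher genes with the largest lesser differences were Fxyd6, Cd81, Tspan5, Slc38a1 and Car4, which encode membrane proteins. Fxyd6 (ENSMUSG00000066705), for a small regulator of the sodium pump, was at 0.536, 0.274 and 0.545 in the ICM libraries, 52.1, 36.5 and 48.9 in diapaused ICM and 26.6 and 41.3 in epiblast. Every later library stood far above every ICM library, and the later groups overlapped each other. The average difference was 4.78 ± 0.22 (limma, adjusted p = 5.49e-06), made of 5.00 in diapaused ICM and 4.56 in epiblast. The tetraspanin gene Cd81 (ENSMUSG00000037706), whose product organises other membrane proteins, was at 0.686, 0.734 and 0.628 in the ICM libraries, 81.9, 57.4 and 97.6 in diapaused ICM and 28.8 and 24.6 in epiblast. It was high in both later states and highest in diapaused ICM. Its average difference was 4.79 ± 0.21 (limma, adjusted p = 5.49e-06), made of 5.54 in diapaused ICM and 4.04 in epiblast, and epiblast lay below diapaused ICM (-1.50, adjusted p = 0.00315).

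A second tetraspanin gene, Tspan5 (ENSMUSG00000028152), was at 1.79, 1.99 and 1.901 in the ICM libraries, 22.4, 39.6 and 32.0 in diapaused ICM and 26.3 and 25.8 in epiblast. ICM was uniformly low, and diapaused ICM and epiblast overlapped. Averaged over the later groups, the difference was 3.34 ± 0.21 (limma, adjusted p = 2.97e-05), made of 3.45 in diapaused ICM and 3.23 in epiblast. Among 19 tetraspanin genes tested, 5 were shared higher (26.3% against 7.85% of all genes; 4 with equal sums) and 1 lower (5.26% against 7.53%). Tspan6 (2.44 ± 0.19) and Tspan9 (2.10 ± 0.19) were 2 others that rose, with epiblast further for the former and diapaused ICM further for the latter. Cd9, known from egg and sperm fusion, went from 20.96, 15.3 and 19.98 in ICM to 19.005, 19.8 and 15.7 in diapaused ICM and 7.15 and 6.92 in epiblast. Its call (adjusted p = 0.0425) rested on epiblast, since the diapaused libraries overlapped ICM, and was lost in 11 of 20 alternatives.

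Glutamine and other neutral amino acids enter cells through the products of Slc38a1 and Slc38a2. Slc38a1 (ENSMUSG00000023169) was at 0.328, 0.262 and 0.457 in the ICM libraries, 21.4, 22.6 and 31.8 in diapaused ICM and 18.5 and 20.2 in epiblast. All ICM libraries were low and all later ones were high, with overlap between the later groups. Together the later groups differed from ICM by 4.09 ± 0.19 (limma, adjusted p = 5.49e-06), made of 4.27 in diapaused ICM and 3.91 in epiblast. Slc38a2 (ENSMUSG00000022462) was at 3.97, 3.35 and 4.29 in the ICM libraries, 69.2, 60.99 and 113 in diapaused ICM and 32.6 and 33.2 in epiblast, high in both later groups and higher in diapaused ICM than in epiblast (difference -1.22, adjusted p = 0.0121). Its average difference was 3.42 ± 0.23 (limma, adjusted p = 4.54e-05), made of 4.03 in diapaused ICM and 2.80 in epiblast. Members moved in both directions. Of 19 amino acid transporter genes tested 4 were shared higher (21.1% against 7.85% of all genes) and 3 lower (15.8% against 7.53%). The higher count was 2 with equal sums, and 2 without ICM replicate 1, ICM replicate 2 or epiblast replicate 1. Among the lower was the glutamate transporter gene Slc1a1, at 11.99, 21.7 and 15.4 in ICM, 0.620, 0.644 and 0.806 in diapaused ICM and 0.113 and 0.125 in epiblast (-3.62 ± 0.21, limma, adjusted p = 1.73e-05).

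Carbonic anhydrases interconvert carbon dioxide and bicarbonate. Car4 (ENSMUSG00000000805), for the membrane-anchored form, was at 1.22, 1.19 and 1.55 in the ICM libraries, 53.7, 28.9 and 25.3 in diapaused ICM and 78.04 and 80.4 in epiblast. Both later groups were high and epiblast was the higher of them in both of its libraries. This gave an average difference of 4.52 ± 0.26 (limma, adjusted p = 1.36e-05), made of 3.92 in diapaused ICM and 5.12 in epiblast. Car2 (ENSMUSG00000027562), for a cytosolic form, was at 1.28, 1.07 and 1.44 in ICM, 7.05, 19.7 and 15.7 in diapaused ICM and 15.1 and 12.3 in epiblast. Its later groups overlapped, and the average difference was 2.67 ± 0.30 (limma, adjusted p = 0.000605), made of 2.64 in diapaused ICM and 2.69 in epiblast.

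**Figure D2:**
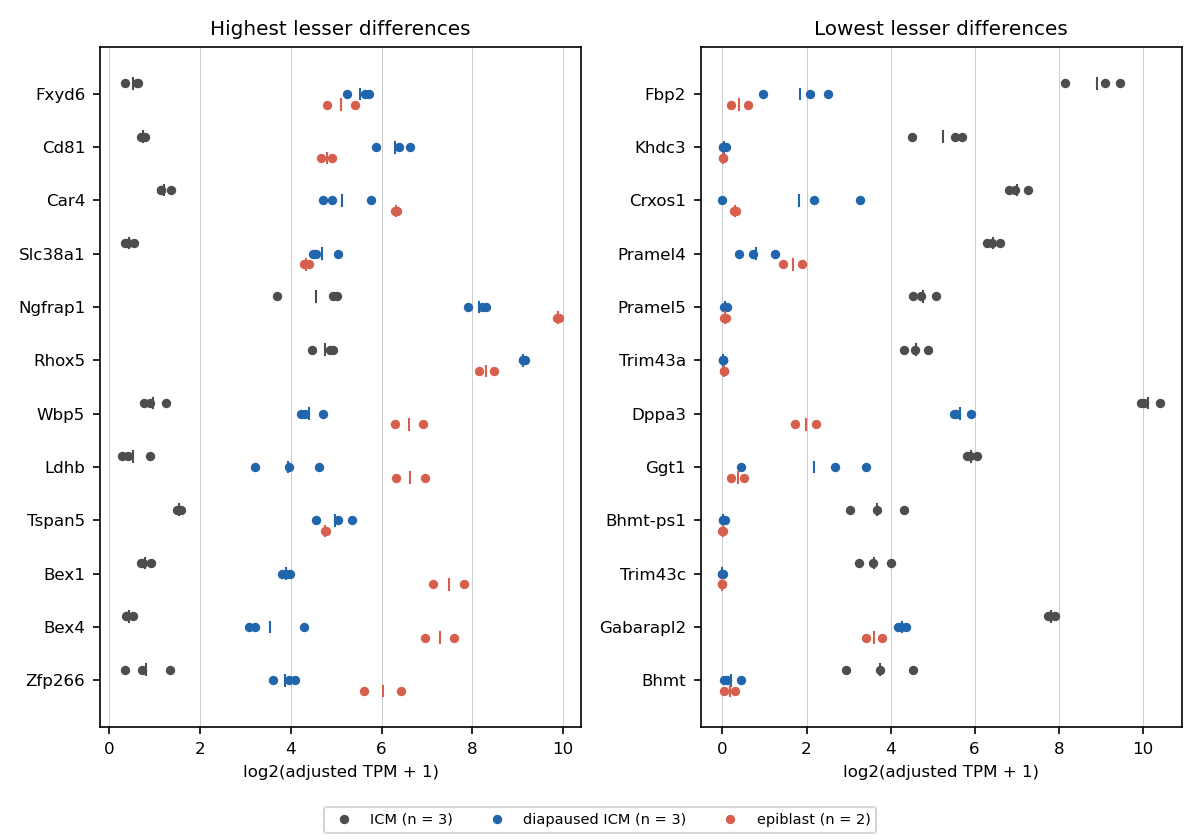
Points are single libraries for the 12 genes with the largest lesser differences in each direction, predicted genes and genes with overlapping or low levels left out, with log2(level + 1) on the x axis, ICM in black, diapaused ICM in blue and epiblast in red, and ticks marking group means. In every row the 3 ICM points stand apart from the 5 later ones, while blue and red points overlap for some genes, such as Fxyd6 and Tspan5, and stand apart for others, such as Bex1 and Dppa3.

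The X-linked homeobox gene Rhox5 (ENSMUSG00000095180), which is expressed in extraembryonic tissue and the testis, was at 29.6, 21.1 and 28.1 in the ICM libraries, 555, 568 and 552 in diapaused ICM and 284 and 353 in epiblast. The diapaused libraries were tightly grouped and above epiblast, which in turn was above ICM. Against ICM, the later average differed by 3.96 ± 0.19 (limma, adjusted p = 6.27e-06), made of 4.37 in diapaused ICM and 3.56 in epiblast. Visceral endoderm also expresses Rhox5; the other markers of that tissue are given above. Its neighbours Rhox6 and Rhox9 were shared higher with nearly all of the change in diapaused ICM: Rhox6 was at 0.01204, 0.0125 and 0.000995 in ICM, 12.6, 10.5 and 11.02 in diapaused ICM and 0.5598 and 0.497 in epiblast, and Rhox9 at 0.2401, 0.05599 and 0.0261 in ICM, 10.5, 7.53 and 4.55 in diapaused ICM and 0.275 and 0.528 in epiblast. The difference of epiblast from ICM did not pass for either (adjusted p = 0.0606 and 0.461).

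Zfp266 (ENSMUSG00000060510), for a KRAB zinc finger protein of a family that represses repeats, was at 1.52, 0.271 and 0.644 in the ICM libraries, 11.1, 14.6 and 16.03 in diapaused ICM and 48.2 and 85.2 in epiblast. ICM replicate 1 was the highest of its group and still far under the later libraries. Its later average differed from ICM by 4.16 ± 0.29 (limma, adjusted p = 4.68e-05), made of 3.08 in diapaused ICM and 5.23 in epiblast. Of 196 zinc finger genes tested, 20 were shared higher (10.2%; 11 without ICM replicate 1, ICM replicate 2 or epiblast replicate 1, and 13 without diapaused ICM replicate 3) and 9 lower (4.59%; 5 without either epiblast library), near the 7.85% and 7.53% of all genes. Nefm, for the medium neurofilament subunit, was at 1.67, 0.384 and 1.41 in ICM, 25.01, 18.3 and 25.2 in diapaused ICM and 25.7 and 10.2 in epiblast, with overlapping later groups and an average difference of 3.29 ± 0.33 (limma, adjusted p = 0.00035), made of 3.51 in diapaused ICM and 3.06 in epiblast.

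The tested small genes of 1 family on the X chromosome were all higher in the later average, a count that partly reflects the filter. Bex and Tceal genes encode short, related adaptor proteins of the nucleus and cytoplasm, several of them abundant in neural tissue. All 9 that were tested were shared higher: Bex1, Bex2, Ngfrap1 (also called Bex3), Bex4, Tceal3, Tceal5, Tceal7, Tceal8 and Wbp5 (also called Tceal9). Of these, Bex1, Bex4, Tceal3, Tceal5 and Tceal7 were under 1 in every ICM library. They passed the filter only through later libraries and could hardly come out lower. Bex1 (ENSMUSG00000050071) was at 0.622, 0.887 and 0.676 in the ICM libraries, 12.95, 14.8 and 13.97 in diapaused ICM and 226 and 139 in epiblast. Its groups formed 3 separate steps. The average difference was 4.90 ± 0.21 (limma, adjusted p = 4.77e-06), made of 3.11 in diapaused ICM and 6.69 in epiblast. Bex4 (ENSMUSG00000047844) was at 0.289, 0.316 and 0.426 in ICM, 7.45, 8.31 and 18.6 in diapaused ICM and 192 and 124 in epiblast, with the same order of groups and an average difference of 4.98 ± 0.30 (limma, adjusted p = 2.07e-05), made of 3.11 in diapaused ICM and 6.85 in epiblast.

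Ngfrap1 (ENSMUSG00000046432), for a binding partner of the p75 neurotrophin receptor, had the highest levels of them at 29.4, 11.95 and 31.3 in the ICM libraries, 238, 295 and 314 in diapaused ICM and 967 and 937 in epiblast. It was well expressed already in ICM and rose by steps. Averaged over the later groups, the difference was 4.47 ± 0.31 (limma, adjusted p = 4.81e-05), made of 3.59 in diapaused ICM and 5.35 in epiblast. Wbp5 (ENSMUSG00000042712) was at 0.6905, 0.871 and 1.36 in ICM, 18.8, 24.98 and 17.6 in diapaused ICM and 119 and 77.6 in epiblast, with an average difference of 4.54 ± 0.23 (limma, adjusted p = 7.39e-06), made of 3.44 in diapaused ICM and 5.63 in epiblast. Bex2 went through 1.06 ± 0.357 in ICM, 15.6 ± 3.66 in diapaused ICM and 74.1 ± 17.7 in epiblast (mean ± SD, n = 3, 3 and 2), and Tceal8 through 0.799 ± 0.7404 in ICM, 9.75 ± 4.87 in diapaused ICM and 76.2 ± 21.2 in epiblast. Tceal7 was lower, at 0.449, 0.337 and 0.243 in ICM, 1.93, 2.78 and 5.89 in diapaused ICM and 6.697 and 9.21 in epiblast. Tceal3 and Tceal5 differed from ICM mainly in epiblast. Tceal3 was at 0.0142, 0.0107 and 0.00684 in ICM, 0.0141, 0.116 and 0.00674 in diapaused ICM and 2.85 and 2.65 in epiblast, and Tceal5 at 0.00141, 5.39e-06 and 0.00686 in ICM, 0.0121, 5.24e-06 and 0.166 in diapaused ICM and 6.49 and 3.52 in epiblast. In the order of RefSeq genes, Tceal5, Bex1, Tceal7, Wbp5 and Ngfrap1 were neighbours among the tested genes, and so were Arxes2, Arxes1, Bex2, Bex4 and Tceal8.

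**Figure D3:**
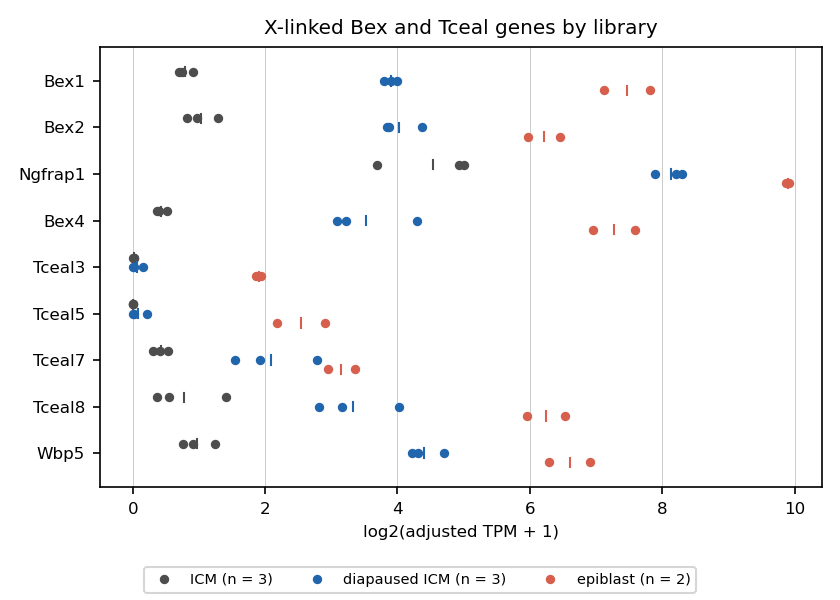
Points are single libraries for the 9 X-linked Bex and Tceal genes tested, with log2(level + 1) on the x axis, ICM in black, diapaused ICM in blue, epiblast in red and ticks at group means. Epiblast is to the right of diapaused ICM in every row, and diapaused ICM is to the right of ICM in every row but those of Tceal3 and Tceal5, where the 2 overlap near 0.

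Because these neighbours moved together, their promoters were read from RefSeq (GRCm38.p6), 250 bases before to 50 bases after each listed start. The 7 letters CACGTGA, an E-box with a flanking A, were searched on both strands after the sequences had been seen, so the motif is a description only. They occurred in 8 of the 10 X-linked family members in the table and in 7 of the 9 that were shared higher, against 7.28% of 8708 tested genes with a promoter and 4.29% of all 27025 genes of the promoter table. The longer TCACGTGA, which contains it, occurred in 2.39% and 1.12% of the same genes. The windows of Bex2 and Wbp5 held no such letters. In the stretches that follow, given 5′ to 3′ on the strand of the gene, capitals mark the motif, and they show how the letters around it differ between members.
Bex1: gacgcaagtggCACGTGActagcccacgc
Bex4: gacgcaagtggCACGTGActagcccacgc
Ngfrap1: cgcagggccctCACGTGAcccggggctgc
Tceal3: gacgcggtgttCACGTGAccggccaggcg
Tceal5: gacgttcctgtCACGTGAtcaggagcaga
Tceal7: gacataatcctCACGTGAttagaagctga
Tceal8: gacgcgatcctCACGTGAccagcagtcga

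The stretch of Bex1 lies at chrX:136215499-136215527 on the minus strand with the motif beginning 3 bases before the start, and that of Bex4 at chrX:136138976-136139004 on the plus strand with the motif beginning 9 bases before it. That of Ngfrap1 lies at chrX:136270269-136270297 on the plus strand, where the motif begins at base 28 of the transcript. The Bex1 and Bex4 windows were identical at 95.1% of 306 aligned positions, with a shared run of 271 bases, and those of Bex2 and Ngfrap1 at 71.6% of 338. These windows lie mostly before the start, and the transcripts themselves were not compared. Whether Bex1 and Bex4 exchanged reads in the authors' quantification was not tested, so the split between them is uncertain.

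The wider set held X-linked Rhox, Bex, Xlr and Mage genes, many of which are silenced by DNA methylation in adult tissue. Of 29 tested, 18 were shared higher (62.1% against 7.85% of all genes, and 15 genes with equal sums). Another 3 were lower (10.3% against 7.53%, and 1 gene without ICM replicate 1, ICM replicate 3 or either epiblast library). Members under 1 in every ICM library, among them Rhox6 and Rhox9, could hardly be lower, so the higher count partly reflects the filter. The median average difference was 1.11, against 0.0994 over all genes tested. Both pairwise comparisons called 8 of those 18 (27.6% of those tested, against 1.92% of all genes). The 3 lower ones were Mageb16, Magea2 and Magea3. Mageb16 went from 25.5, 28.7 and 38.4 in ICM to 10.8, 12.4 and 15.2 in diapaused ICM and 3.42 and 4.71 in epiblast (-1.92 ± 0.21). Xist, the RNA that silences an X chromosome in female cells, was at 29.4, 24.97 and 44.5 in ICM, 99.99, 60.1 and 41.5 in diapaused ICM and 76.01 and 45.2 in epiblast and was not called (0.91 ± 0.33, adjusted p = 0.0957).

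Imprinted genes, which are read from the copy of only one parent, included 13 shared higher and 0 lower among 23 tested (10 with equal sums). Of those tested, 56.5% were thus higher and 0% lower, against 7.85% and 7.53% of all genes. The median average difference of the list was 1.19. Both pairwise comparisons called 7 of the 13 (30.4% of those tested, against 1.92% of all genes). Peg3 (ENSMUSG00000002265), a paternally expressed zinc finger gene, was at 2.56, 1.28 and 3.46 in the ICM libraries, 47.5, 41.9 and 56.3 in diapaused ICM and 19.6 and 23.6 in epiblast. It was highest in diapaused ICM, with no overlap between any groups. Together the later groups differed from ICM by 3.33 ± 0.25 (limma, adjusted p = 6.93e-05), made of 3.89 in diapaused ICM and 2.76 in epiblast. The maternally expressed noncoding RNA H19 (ENSMUSG00000000031) was at 4.15, 9.22 and 6.82 in ICM, 28.8, 24.8 and 78.2 in diapaused ICM and 74.1 and 73.2 in epiblast. Diapaused ICM replicate 3 matched epiblast and the other 2 stood between the groups. Its average difference was 2.87 ± 0.39 (limma, adjusted p = 0.00156), made of 2.40 in diapaused ICM and 3.33 in epiblast.

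Placental growth genes of the imprinted set followed different orders. Phlda2, a maternally expressed restraint on placental growth, was at 0.143, 0.228 and 0.537 in ICM, 3.97, 2.90 and 3.08 in diapaused ICM and 3.499 and 2.75 in epiblast (1.70 ± 0.20), with overlapping later groups. Peg10, a retrotransposon-derived gene needed for the placenta, rose in steps and was at 0.697, 1.25 and 1.03 in ICM, 6.93, 4.81 and 5.98 in diapaused ICM and 20.9 and 21.3 in epiblast (2.64 ± 0.19). Grb10, for an adaptor that restrains insulin signalling, was at 1.02, 2.11 and 1.402 in ICM, 1.35, 1.01 and 2.42 in diapaused ICM and 39.6 and 36.2 in epiblast. Diapaused ICM did not stand apart from ICM for Grb10 (difference 0.03, adjusted p = 0.958), so its shared call rests on epiblast.

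Genes of glycolysis and lactate use were shared higher in 13 of 26 cases (50% against 7.85% of all genes). The count was 8 with equal sums, and 8 without ICM replicate 2 or without either epiblast library. The 1 lower gene was Fbp2 (3.85% against 7.53% of all genes). The median average difference was 0.861, with 0.458 in diapaused ICM and 1.11 in epiblast. Both pairwise comparisons called 3 of the 13 (11.5% of those tested, against 1.92% of all genes). Ldhb (ENSMUSG00000030246), for the heart-type subunit of lactate dehydrogenase, was at 0.332, 0.865 and 0.2105 in the ICM libraries, 8.32, 14.7 and 23.6 in diapaused ICM and 123 and 78.3 in epiblast. It was almost silent in ICM and rose in both later states, most in epiblast. This gave an average difference of 4.75 ± 0.33 (limma, adjusted p = 4.81e-05), made of 3.41 in diapaused ICM and 6.10 in epiblast. Eno1, for enolase, was at 5.72, 12.6 and 9.89 in ICM, 23.4, 20.5 and 36.8 in diapaused ICM and 162 and 123 in epiblast and moved in the same order (2.64 ± 0.29, adjusted p = 0.000576, with 1.44 in diapaused ICM and 3.83 in epiblast).

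Some of the other calls rested on epiblast. Pgk1, for phosphoglycerate kinase, was at 28.7, 10.8 and 29.5 in ICM, 41.8, 36.04 and 53.96 in diapaused ICM and 609 and 563 in epiblast. The epiblast libraries were far above the others, and the difference of diapaused ICM from ICM alone was not called (1.01, adjusted p = 0.112). Slc2a3, for the glucose transporter GLUT3, had the opposite order, at 22.4, 23.8 and 25.8 in ICM, 162, 133 and 200.1 in diapaused ICM and 36.5 and 45.7 in epiblast. Diapaused ICM was far above both other groups, and the difference of epiblast from ICM did not pass (0.75, adjusted p = 0.052). Slc2a3 is also among the trophectoderm markers whose sum was highest in diapaused ICM.

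Cholesterol synthesis genes were shared higher in 11 of 24 cases (45.8% against 7.85% of all genes, and 7 genes with equal sums) and lower in 0 (against 7.53%). Their median average difference was 0.970. Diapaused ICM lay further than epiblast for 7 of the 11, and both pairwise comparisons called 4 (16.7% of those tested, against 1.92% of all genes). Cyp51 (ENSMUSG00000001467), for lanosterol demethylase, was at 3.34, 2.89 and 3.87 in the ICM libraries, 26.1, 25.9 and 36.3 in diapaused ICM and 11.7 and 13.1 in epiblast. Epiblast stood between ICM and diapaused ICM without overlap. Against ICM, the later average differed by 2.21 ± 0.19 (limma, adjusted p = 0.000174), made of 2.79 in diapaused ICM and 1.62 in epiblast. Stard4, for a cholesterol carrier, reached 50.99, 22.6 and 21.8 in diapaused ICM and 2.096 and 5.62 in epiblast from 0.284, 0.339 and 0.802 in ICM, and Fdft1, for squalene synthase, went from 7.67, 5.61 and 4.01 to 59.7, 52.5 and 50.4 in diapaused ICM while epiblast, at 6.501 and 10.4, overlapped ICM.

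Several cytoskeletal genes known from neurons rose alongside. Of 45 cytoskeletal genes tested 13 were shared higher (28.9% against 7.85% of all genes; 9 with equal sums, 8 without epiblast replicate 1) and 4 lower (8.89%, near the 7.53% of all genes; 2 without ICM replicate 1, ICM replicate 3 or either epiblast library), with a median average difference of 0.596. Stmn2, for a microtubule-destabilising protein, was at 0.896, 0.567 and 0.631 in ICM, 11.6, 12.7 and 11.97 in diapaused ICM and 6.72 and 8.54 in epiblast. It was low in every ICM library and rose in both states. Its later average differed from ICM by 2.64 ± 0.17 (limma, adjusted p = 3.37e-05), made of 2.95 in diapaused ICM and 2.34 in epiblast. Its relative Stmn1 was at 50.3, 37.9 and 62.5 in ICM, 238, 231 and 197 in diapaused ICM and 560.2 and 377 in epiblast and rose in steps (2.67 ± 0.23). Map1b, for a microtubule-binding protein, was at 0.555, 1.09 and 1.15 in ICM, 7.02, 4.53 and 7.77 in diapaused ICM and 6.605 and 5.04 in epiblast (1.88 ± 0.22), and Dpysl3 showed the same direction (1.65 ± 0.20). The abundant actin genes went the other way: Actb was at 1452, 1356 and 1466 in ICM, 1160.4, 1139 and 1455 in diapaused ICM and 756 and 519 in epiblast and Actg1 at 693, 595 and 847 in ICM, 412, 419.9 and 707 in diapaused ICM and 271 and 255 in epiblast, with calls that rested on epiblast (adjusted p of the average = 0.0385 and 0.0245), and that of Actb was lost in 10 of 20 alternatives.

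Cytosolic ribosomal protein genes showed a smaller shift. Of 83 tested 15 were shared higher (18.1% against 7.85% of all genes) and 2 lower (2.41% against 7.53%), with a median average difference of 0.470. The count of higher ones was 9 with equal sums, 4 without ICM replicate 1, 6 without ICM replicate 2 and 5 without epiblast replicate 1, and a test against a fold of 1.5 called 0. Many of these genes have processed copies that could share reads. Rpl35 went through 42.6 ± 9.87 in ICM, 109 ± 20.5 in diapaused ICM and 105 ± 24.99 in epiblast (1.32 ± 0.23, adjusted p = 0.00607). The 2 lower genes were Rpl39l and Rpl10l, copies of ribosomal protein genes with expression in germ cells. Rpl39l was at 45.2, 20.7 and 39.3 in ICM, 6.09, 12.3 and 6.77 in diapaused ICM and 5.53 and 6.53 in epiblast (-2.11 ± 0.31) and Rpl10l at 16.3, 12.3 and 7.16 in ICM, 2.95, 0.928 and 3.65 in diapaused ICM and 1.36 and 1.23 in epiblast (-2.17 ± 0.34).

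Of all tested genes, the gluconeogenic gene Fbp2 had the largest shared fall by the lesser difference. Fbp2 (ENSMUSG00000021456), for the muscle form of fructose bisphosphatase, was at 699, 284 and 551 in the ICM libraries, 4.66, 0.955 and 3.24 in diapaused ICM and 0.147 and 0.529 in epiblast. It was among the abundant transcripts of ICM and nearly gone from every later library. The average difference was -7.78 ± 0.40 (limma, adjusted p = 7.39e-06), made of -7.05 in diapaused ICM and -8.50 in epiblast.

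Genes known from the oocyte and the cleavage stages gave shared lower calls and no shared higher ones. Members near 0 in every later library passed the filter only through ICM and could only be lower. The shares of these lists therefore partly reflect the filter. Of 52 oocyte and egg genes only 11 reached the level needed for a test, and 6 of those were shared lower (4 without ICM replicate 2, ICM replicate 3 or either epiblast library) and 0 higher. The 6 were 54.5% of those tested, against 7.53% of all genes. The median average difference was -1.38, and both pairwise comparisons called all 6. Khdc3 (ENSMUSG00000092622), for a component of the subcortical maternal complex of the egg, was at 45.2, 21.9 and 51.03 in the ICM libraries, 0.00862, 0.0106 and 0.0519 in diapaused ICM and 0.0122 and 0.00733 in epiblast. Every later library was near 0, and diapaused ICM did not differ from epiblast beyond its spread (difference -0.02, adjusted p = 0.972). Averaged over the later groups, the difference was -5.23 ± 0.27 (limma, adjusted p = 7.39e-06), made of -5.22 in diapaused ICM and -5.24 in epiblast. Khdc1a, of a related family, was at 3.21, 5.397 and 5.76 in ICM, 0.758, 0.0998 and 0.462 in diapaused ICM and 0.309 and 0.0956 in epiblast (-2.12 ± 0.25), and Nlrp4c at 1.32, 3.53 and 2.15 in ICM, 0.00475, 0.0002102 and 9.36e-07 in diapaused ICM and 6.13e-06 and 0.00104 in epiblast (-1.68 ± 0.27).

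Of 39 genes of families expressed around zygotic genome activation, 15 reached the level needed for a test. They gave 9 shared lower genes (60% against 7.53% of all genes, and 8 to 10 genes when single libraries were left out) and 0 higher. The median average difference was -2.13. Both pairwise comparisons called 8 of the 9, and the limit of the filter given above holds here too. These families hold near-identical copies, so values of single members are uncertain where reads were shared. Trim43a (ENSMUSG00000090693), for a ubiquitin ligase family member of the cleavage stages, was at 19.095, 22.8 and 28.8 in the ICM libraries, 0.01295, 0.00144 and 0.0129 in diapaused ICM and 0.0332 and 0.0301 in epiblast. The later libraries were all near 0. Together the later groups differed from ICM by -4.57 ± 0.19 (limma, adjusted p = 4.77e-06), made of -4.59 in diapaused ICM and -4.55 in epiblast. Trim43c went from 10.9, 8.57 and 15.1 in ICM to nearly 0 in every later library (-3.61 ± 0.21). Crxos1 (ENSMUSG00000074365), for a homeobox protein, was at 124, 111 and 154 in the ICM libraries, 3.53, 2.84e-05 and 8.71 in diapaused ICM and 0.215 and 0.25 in epiblast. The diapaused libraries were uneven, with replicate 2 near 0. This gave an average difference of -5.96 ± 0.61 (limma, adjusted p = 0.000365), made of -5.20 in diapaused ICM and -6.72 in epiblast.

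Pramel4 and Pramel5 encode leucine-rich proteins of the Prame family and lie near each other on chromosome 4. Pramel4 (ENSMUSG00000073724) was at 77.9, 84.3 and 95.6 in the ICM libraries, 1.395, 0.315 and 0.658 in diapaused ICM and 1.72 and 2.72 in epiblast. It fell in both states, and diapaused ICM was the lower of them. Against ICM, the later average differed by -5.20 ± 0.24 (limma, adjusted p = 5.49e-06), made of -5.64 in diapaused ICM and -4.77 in epiblast. Pramel5 (ENSMUSG00000036749) was at 25.4, 22.04 and 32.7 in the ICM libraries, 0.0271, 0.0709 and 0.03798 in diapaused ICM and 0.0336 and 0.0598 in epiblast, near 0 in all 5 later libraries. Its later average differed from ICM by -4.71 ± 0.19 (limma, adjusted p = 4.77e-06), made of -4.71 in diapaused ICM and -4.71 in epiblast. In the RefSeq order, Pramel4, Gm13102 and Pramel5 were tested neighbours, and all 3 were shared lower. Their promoter windows (RefSeq, GRCm38.p6) were identical at 83.4% of 320 aligned positions. The 150 bases shown for each, chr4:144058975-144059124 on the plus strand for Pramel4 and chr4:144280467-144280616 on the minus strand for Pramel5, are given 5′ to 3′ on the strand of the gene, and capitals mark a run of 48 bases that both share. They are shown because the 2 genes fell together and their upstream regions are near copies. The transcripts were not compared, and whether reads were split between the 2 genes was not tested.
Pramel4: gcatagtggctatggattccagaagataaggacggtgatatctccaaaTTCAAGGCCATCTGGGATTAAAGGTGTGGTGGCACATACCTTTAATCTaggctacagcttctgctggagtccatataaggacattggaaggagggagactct
Pramel5: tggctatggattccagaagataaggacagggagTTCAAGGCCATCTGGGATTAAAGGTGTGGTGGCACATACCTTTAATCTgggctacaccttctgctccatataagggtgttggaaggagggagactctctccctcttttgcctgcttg

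Dppa3 (ENSMUSG00000046323), for Stella, a maternal protein that shields the early genome from demethylation, was at 1051, 1361 and 987 in the ICM libraries, 45.9, 59.6 and 44.2 in diapaused ICM and 3.68 and 2.31 in epiblast. Its groups formed 3 steps. The average difference was -6.32 ± 0.22 (limma, adjusted p = 4.77e-06), made of -4.48 in diapaused ICM and -8.16 in epiblast, and epiblast lay below diapaused ICM (-3.68, adjusted p = 5.07e-05). Dppa2 (ENSMUSG00000072419), for an activator of early embryonic genes, was at 77.3, 75.4 and 91.3 in the ICM libraries, 8.28, 9.09 and 10.3 in diapaused ICM and 0.797 and 0.846 in epiblast, with the same steps. Averaged over the later groups, the difference was -4.25 ± 0.17 (limma, adjusted p = 4.77e-06), made of -3.01 in diapaused ICM and -5.49 in epiblast. Its partner Dppa4 was at 49.8, 26.4 and 52.3 in ICM, 4.23, 7.33 and 7.92 in diapaused ICM and 1.72 and 2.73 in epiblast (-3.12 ± 0.29).

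Metabolic genes among the largest falls included those for betaine and glutathione. Bhmt (ENSMUSG00000074768), for betaine-homocysteine methyltransferase, was at 6.71, 22.2 and 12.4 in ICM, 0.0249, 0.354 and 0.0781 in diapaused ICM and 0.0303 and 0.236 in epiblast. Levels were modest in ICM and near 0 later. Together the later groups differed from ICM by -3.56 ± 0.33 (limma, adjusted p = 0.000233), made of -3.55 in diapaused ICM and -3.57 in epiblast. Its pseudogene Bhmt-ps1 followed at 7.16, 18.97 and 11.7 in ICM, 0.00122, 0.0384 and 0.003697 in diapaused ICM and 0.00151 and 0.000795 in epiblast (-3.66 ± 0.28), and reads of the pair may have been shared. Ggt1, for a peptidase that breaks down glutathione, was at 55.6, 65.6 and 58.02 in ICM, 0.348, 5.41 and 9.67 in diapaused ICM and 0.437 and 0.145 in epiblast. Diapaused ICM was uneven, from 0.348 to 9.67, and all later libraries lay far below ICM. This gave an average difference of -4.65 ± 0.57 (limma, adjusted p = 0.000866), made of -3.75 in diapaused ICM and -5.56 in epiblast. Gstp1, for a glutathione transferase with a close copy in Gstp2, went through 68.3 ± 7.43 in ICM, 15.9 ± 2.37 in diapaused ICM and 8.84 ± 0.589 in epiblast (-2.42 ± 0.19), while of 38 genes of glutathione, thioredoxin and metallothionein 6 were shared higher (15.8% against 7.85% of all genes; 3 without ICM replicate 1) and 8 lower (21.1% against 7.53%; 5 without ICM replicate 1, 4 without ICM replicate 3 or epiblast replicate 1).

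Related genes of autophagosome formation moved in opposite directions. Gabarapl2 (ENSMUSG00000031950), for an ATG8-family protein of autophagosome membranes, was at 215, 220.0 and 240.1 in the ICM libraries, 17.03, 18.05 and 19.5 in diapaused ICM and 12.9 and 9.61 in epiblast. The fall was uniform within groups. Against ICM, the later average differed by -3.89 ± 0.18 (limma, adjusted p = 5.49e-06), made of -3.56 in diapaused ICM and -4.22 in epiblast. Map1lc3b, for the family member LC3B, was at 243, 274 and 348 in ICM, 55.99, 44.9 and 46.9 in diapaused ICM and 28.8 and 28.5 in epiblast (-2.90 ± 0.20, adjusted p = 4.37e-05). Gabarapl1 moved the opposite way and was at 6.26, 7.56 and 6.601 in ICM, 42.6, 44.9 and 40.5 in diapaused ICM and 19.5 and 23.4 in epiblast. Both later groups lay above ICM, diapaused ICM the higher (2.005 ± 0.17, adjusted p = 0.000167, with 2.49 in diapaused ICM and 1.52 in epiblast). Of 49 autophagy and lysosome genes 6 were shared higher (12.2% against 7.85% of all genes) and 9 lower (18.4% against 7.53%; 14 with equal sums), with Tfeb, for a master activator of lysosomal genes, at 1.298, 1.01 and 0.620 in ICM, 4.25, 8.63 and 7.86 in diapaused ICM and 2.77 and 2.54 in epiblast (1.44 ± 0.24) and the lysosomal genes Glb1 (-2.65 ± 0.18) and Psap (-2.42 ± 0.24) among the lower.

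Naive pluripotency genes were shared lower in 14 of 25 cases (56% against 7.53% of all genes) and higher in 1 (4% against 7.85%). Their fall lay mostly in epiblast. The median difference was -0.135 in diapaused ICM and -3.59 in epiblast, and epiblast was further from ICM for 13 of the 14. Both pairwise comparisons called 7 (28% of those tested, against 3.01% of all genes). Fbxo15, a target of Oct4 and Sox2, was at 304, 254 and 273 in the ICM libraries, 136, 103 and 113 in diapaused ICM and 1.35 and 1.55 in epiblast. Diapaused ICM lay between ICM and epiblast, with no overlap. Its later average differed from ICM by -4.03 ± 0.18 (limma, adjusted p = 5.49e-06), made of -1.24 in diapaused ICM and -6.82 in epiblast. Spp1, for osteopontin, was at 182, 180.0 and 176 in ICM, 89.02, 72.2 and 119 in diapaused ICM and 0.781 and 1.22 in epiblast (-3.73 ± 0.21). Tet2, for an enzyme that oxidises methylated cytosine, was at 55.2, 44.2 and 63.2 in ICM, 17.2, 14.7 and 23.4 in diapaused ICM and 0.647 and 0.573 in epiblast (-3.30 ± 0.22). The higher gene was Nr0b1, for the repressor Dax1, at 0.645, 0.558 and 0.774 in ICM, 8.33, 4.19 and 7.12 in diapaused ICM and 1.795 and 1.47 in epiblast, where only the diapaused difference was called on its own (adjusted p = 0.000945 against 0.105 in epiblast).

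Of the central factors, Pou5f1 was at 118, 135 and 135 in ICM, 102, 115 and 100.47 in diapaused ICM and 70.5 and 66.2 in epiblast. Diapaused ICM lay below ICM in all 3 libraries and epiblast below both. Its average difference was -0.60 ± 0.17 (limma, adjusted p = 0.0434), made of -0.29 in diapaused ICM and -0.91 in epiblast, and the call was lost in 14 of 20 alternatives. Zfp42, for Rex1, was at 8.803, 10.3 and 9.39 in ICM, 5.62, 6.83 and 10.1 in diapaused ICM and 1.34 and 0.986 in epiblast (-1.31 ± 0.21), and the diapaused libraries overlapped ICM. Nanog was at 232, 102 and 244 in ICM, 155, 119.8 and 132 in diapaused ICM and 80.3 and 69.3 in epiblast and was not called (-0.83 ± 0.30, adjusted p = 0.0913), nor was Sox2, at 1.802, 0.998 and 2.43 in ICM, 3.602, 1.37 and 1.34 in diapaused ICM and 4.68 and 0.994 in epiblast (0.23 ± 0.39, adjusted p = 0.721). Of 17 core pluripotency genes 6 were shared lower (35.3% against 7.53% of all genes, and 3 genes without ICM replicate 1) and 2 higher (11.8% against 7.85%). The RNA-binding gene Lin28a was higher, at 20.8, 22.3 and 23.97 in ICM, 56.96, 72.9 and 64.9 in diapaused ICM and 141 and 125 in epiblast, in steps without overlap (2.01 ± 0.18).

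Of 23 primed epiblast genes, 5 were shared higher (21.7% against 7.85% of all genes) and 1 lower (4.35%), and all 5 were further in epiblast. The tight-junction gene Cldn6 went from 0.903, 0.929 and 1.27 in ICM to 135 and 79.2 in epiblast, with diapaused ICM at 2.32, 0.213 and 1.38. Sall2, for a zinc finger factor, was at 0.689, 0.0161 and 0.0799 in ICM, 8.53, 2.72 and 1.23 in diapaused ICM and 77.2 and 41.7 in epiblast, and was the member that both pairwise comparisons called (adjusted p = 0.0448 in diapaused ICM). Outside that list, the signalling gene Bmp4 fell in both states and was at 14.97, 18.7 and 15.3 in ICM, 4.85, 5.03 and 2.13 in diapaused ICM and 2.35 and 3.54 in epiblast (-1.996 ± 0.26, adjusted p = 0.0013, with -1.85 in diapaused ICM and -2.15 in epiblast). Gata6, a regulator of primitive endoderm, was at 3.703, 3.33 and 5.297 in ICM, 1.42, 1.55 and 2.02 in diapaused ICM and 0.596 and 0.0890 in epiblast (-1.43 ± 0.22, adjusted p = 0.00315, with -0.93 in diapaused ICM and -1.94 in epiblast), while the summed primitive endoderm markers were highest in diapaused ICM. Gata4, at 4.66, 5.09 and 5.42 in ICM, 11.2, 9.22 and 10.8 in diapaused ICM and 0.549 and 0.511 in epiblast, moved in opposite directions and was not called on average (adjusted p = 0.0543). Sox17 (-0.23 ± 0.31, adjusted p = 0.645) and the trophectoderm regulator Cdx2 (0.29 ± 0.30, adjusted p = 0.543) were not called either.

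Replication-linked histone genes were shared lower almost throughout. These genes encode the histones made in S phase, and their mRNAs end in a stem-loop instead of a poly(A) tail. Of 66 tested 60 were shared lower (90.9% against 7.53% of all genes) and 0 higher (against 7.85%). The median average difference was -1.98 (-1.51 in diapaused ICM and -2.45 in epiblast). Both pairwise comparisons called 36 (54.5% of those tested, against 3.01% of all genes). The count of shared lower genes was also 60 with equal sums, and 51 to 60 when single libraries were left out. Summed over the genes, the level was 15275, 15070 and 15312 in ICM, 3778, 7819 and 5897 in diapaused ICM and 2153 and 2850 in epiblast. The 3 groups did not overlap. As a share of each library's summed level this was 1.55% to 2.09% in ICM, 0.32% to 0.706% in diapaused ICM and 0.19% to 0.28% in epiblast.

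By class, all 20 H2A genes were shared lower (median difference -1.51 in diapaused ICM, -2.55 in epiblast), as were all 12 H4 genes (-1.36 and -3.02). For H3, 9 of 10 were, with -1.63 and -4.21. For H2B, 17 of 18 were, with medians of -1.51 and -1.44. The linker H1 set had 2 of 6. The summed H3 level was 3062, 2022 and 1272 in ICM and 192.4, 1402 and 929.5 in diapaused ICM, which overlapped, and 93.34 and 109.4 in epiblast. The summed H2A level was 2571 to 4520 in ICM, 1081 to 1369 in diapaused ICM and 491.9 and 660.7 in epiblast. Many of these genes are near-identical copies, so the values of single genes are uncertain where reads were shared. In the RefSeq order, the longest run of tested neighbours shared lower held 18 genes, all of the Hist1 cluster.

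**Figure D4:**
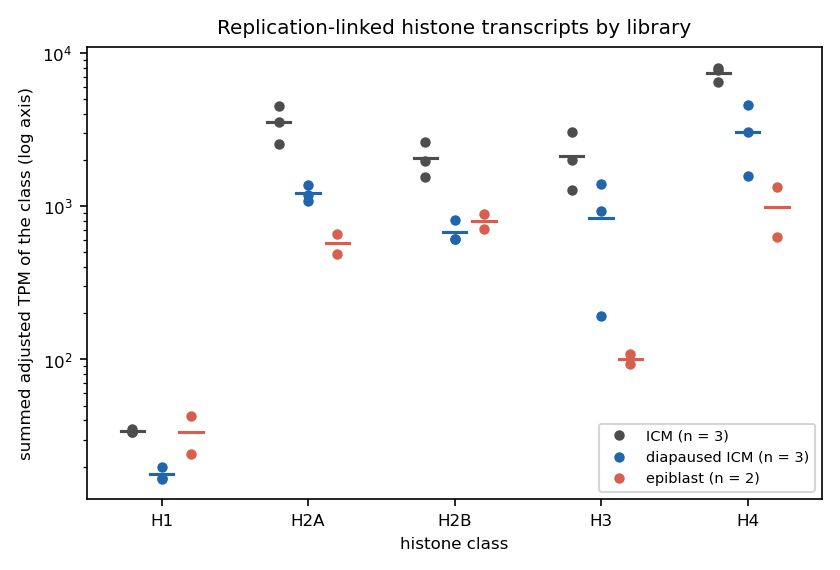
The summed level of the tested replication-linked genes of each histone class is plotted on a log axis in adjusted TPM, with 1 point per library, ICM in black, diapaused ICM in blue, epiblast in red, and bars at the arithmetic group means. Both later groups lie below ICM for H2A, H2B and H4, and diapaused ICM overlaps ICM for H3. H1 is low throughout, with diapaused ICM below ICM and epiblast on both sides of ICM.

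Among single members, Hist1h2be (ENSMUSG00000047246) was at 36.7, 46.1 and 46.5 in the ICM libraries, 14.7, 14.5 and 16.3 in diapaused ICM and 6.58 and 9.57 in epiblast. Its groups formed steps. The average difference was -1.87 ± 0.20 (limma, adjusted p = 0.000419), made of -1.44 in diapaused ICM and -2.29 in epiblast. Hist2h2ac was at 80.99, 115 and 98.7 in ICM, 42.1, 33.05 and 30.4 in diapaused ICM and 21.4 and 17.8 in epiblast (-1.86 ± 0.21), and Hist1h4f at 778, 699 and 733 in ICM, 167, 484 and 308 in diapaused ICM and 46.2 and 118 in epiblast, with diapaused replicates that spread widely (-2.32 ± 0.39). Hist1h3e was at 357, 237 and 148 in ICM, 21.2, 164 and 105 in diapaused ICM and 7.604 and 12.02 in epiblast, where 1 diapaused library overlapped ICM and the diapaused difference alone was not called (adjusted p = 0.143).

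The stem-loop was searched in GENCODE M21 transcripts after the stop codon, on the strand of the transcript, as GG, any 2 bases, CTTTT, any 1 base, AG, any 2 bases and CC. It was found in 36 of 59 replication-linked histone genes that had a transcript record (61.0%), of which 31 were shared lower. It was also found in 11 of 17355 other tested genes (0.0634%), of which only 1 was shared lower and 1 shared higher. The commonest form, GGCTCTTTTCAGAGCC, stood in 21 histone genes. The loops shown, with 5 bases on each side and the motif in capitals, are from a gene of each core class and from H2afx, a variant histone of DNA repair whose gene holds the motif as well.
Hist2h2ac: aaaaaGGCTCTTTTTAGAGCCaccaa
Hist1h2be: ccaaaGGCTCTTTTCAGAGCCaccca
Hist1h3e: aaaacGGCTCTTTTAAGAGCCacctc
Hist1h4f: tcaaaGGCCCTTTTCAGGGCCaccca
H2afx: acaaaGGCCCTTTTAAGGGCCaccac

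They began 21, 29, 36, 25 and 46 bases after the stop codon, in that order. H2afx was the only shared lower gene among the other genes with the motif. It was at 40.04, 63.9 and 54.4 in ICM, 25.6, 24.1 and 26.5 in diapaused ICM and 27.7 and 18.7 in epiblast (-1.08 ± 0.22, adjusted p = 0.0118). Histone RNA without a poly(A) tail is measured according to how a library is primed; the amplification kit was the same for all groups, and its part in these values was not tested. Slbp, for the protein that binds the stem-loop, was at 41.4, 39.5 and 69.7 in ICM, 46.4, 42.9 and 78.1 in diapaused ICM and 97.6 and 103 in epiblast and was not called (0.59 ± 0.28, adjusted p = 0.175).

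Genes for replacement histones, which are made outside S phase, did not share the fall as a set. H1f0, for the linker histone of resting cells, was at 1.58, 2.53 and 2.16 in ICM, 6.97, 7.09 and 8.59 in diapaused ICM and 19.5 and 12.3 in epiblast. It rose in steps, with an average difference of 1.95 ± 0.21 (limma, adjusted p = 0.000495), made of 1.47 in diapaused ICM and 2.43 in epiblast. H2afy2, for macroH2A2, was at 1.53, 1.39 and 0.914 in ICM, 13.02, 19.5 and 13.5 in diapaused ICM and 7.67 and 5.62 in epiblast and was highest in diapaused ICM (2.29 ± 0.21). H3f3a and H3f3b, which both encode H3.3, were also shared higher, with average differences of 1.79 ± 0.33 and 1.07 ± 0.22, each carried mostly by epiblast. H2afy, for macroH2A1, fell to 4.02 and 4.295 in epiblast from 45.1, 38.99 and 39.99 in ICM (-1.84 ± 0.17), and H2afz fell by less (-0.94 ± 0.22).

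Among DNA methylation genes, related members moved in opposite directions. Uhrf1 (ENSMUSG00000001228), for the factor that brings the maintenance methyltransferase to replicated DNA, was at 175, 169.9 and 216 in the ICM libraries, 26.95, 34.1 and 38.01 in diapaused ICM and 34.5 and 23.8 in epiblast. The later groups overlapped and lay far below ICM. Averaged over the later groups, the difference was -2.56 ± 0.22 (limma, adjusted p = 0.000138), made of -2.47 in diapaused ICM and -2.66 in epiblast. Its relative Uhrf2 was at 7.46, 7.26 and 6.18 in ICM, 45.4, 28.7 and 28.8 in diapaused ICM and 21.9 and 24.6 in epiblast, higher in every later library (1.86 ± 0.21, adjusted p = 0.000664, with 2.12 in diapaused ICM and 1.61 in epiblast). Tet1 fell too and was at 121, 93.2 and 148 in ICM, 59.95, 33.3 and 52.4 in diapaused ICM and 28.5 and 29.4 in epiblast (-1.66 ± 0.25). Of 23 genes in all, 4 were shared higher (17.4% against 7.85% of all genes) and 6 lower (26.1% against 7.53%). The higher count was 1 with equal sums, 1 without ICM replicate 1, and 2 without ICM replicate 2, ICM replicate 3 or epiblast replicate 1. Dnmt3b was at 20.96, 24.1 and 32.9 in ICM, 13.5, 8.54 and 7.38 in diapaused ICM and 347 and 158 in epiblast and Dnmt3l at 23.7, 19.8 and 24.2 in ICM, 59.3, 65.1 and 60.2 in diapaused ICM and 10.4 and 10.7 in epiblast. Both moved in opposite directions in the later groups, and neither passed on average (adjusted p = 0.0789 and 0.477).

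Part of the genes for the use of fat fell. Of 25 fatty acid oxidation genes 8 were shared lower (32% against 7.53% of all genes; 5 without ICM replicate 1 or epiblast replicate 1) and 1 higher (4%), with a median average difference of -0.802, made of 0.0106 in diapaused ICM and -1.29 in epiblast. Acaa2 (ENSMUSG00000036880), for a thiolase of the last step, was at 43.4, 35.2 and 55.4 in the ICM libraries, 9.21, 5.47 and 6.198 in diapaused ICM and 2.83 and 2.696 in epiblast. Each later library lay below every ICM library. Together the later groups differed from ICM by -3.05 ± 0.23 (limma, adjusted p = 6.93e-05), made of -2.52 in diapaused ICM and -3.58 in epiblast. Plin2, for a coat protein of lipid droplets, was at 129, 103 and 125 in ICM, 29.1, 14.7 and 29.5 in diapaused ICM and 3.75 and 4.01 in epiblast (-3.46 ± 0.26), and Slc25a20, for the carnitine carrier, at 34.9, 30.3 and 33.03 in ICM, 11.9, 9.55 and 10.8 in diapaused ICM and 3.11 and 2.93 in epiblast (-2.30 ± 0.17).

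Genes of the tricarboxylic acid cycle were shared lower in 6 of 27 cases (22.2% against 7.53% of all genes; 9 with equal sums, 4 without epiblast replicate 1) and higher in 2 (7.41%, near the 7.85% of all genes). Sucla2, for a subunit of succinyl-CoA ligase, was at 123, 80.1 and 121 in ICM, 35.5, 23.03 and 25.6 in diapaused ICM and 33.7 and 42.4 in epiblast (-1.69 ± 0.24), and Idh1 was lower as well (-1.87 ± 0.27), while Me2, for malic enzyme, rose (1.75 ± 0.19). Nuclear respiratory chain genes were shared lower in 11 of 81 cases (13.6%; 20 with equal sums, 7 without epiblast replicate 1) and higher in 2 (2.47%), and mitochondrial ribosomal protein genes in 10 of 76 (13.2%; 5 without ICM replicate 1, 3 without ICM replicate 3, 2 and 6 without epiblast replicates 1 and 2) and 2 (2.63%). Of the 13 mitochondrially encoded mRNAs, 3 were shared lower (23.1%), a count that ran from 0 without ICM replicate 1 or 3 to 10 without ICM replicate 2 and was 9 with equal sums. It was 5 without diapaused ICM replicate 1 and 1 without either epiblast library. The mitochondrially encoded mt-Nd1 was at 921, 620.3 and 989 in ICM, 474, 357 and 319 in diapaused ICM and 412 and 400.3 in epiblast (-1.08 ± 0.23).

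Proteasome genes were shared lower in 15 of 46 cases (32.6% against 7.53% of all genes) and higher in 2 (4.35%), with a median average difference of -0.431. The count of lower ones was 20 with equal sums, 8 without ICM replicate 1 or 3, 9 without epiblast replicate 1, and 1 in a test against a fold of 1.5. Psmb4 (ENSMUSG00000005779), for a subunit of the catalytic core, was at 1659.9, 1591 and 1097 in the ICM libraries, 788, 551 and 524 in diapaused ICM and 317 and 373 in epiblast. ICM replicate 3 was nearest to the later libraries but above all of them. This gave an average difference of -1.63 ± 0.23 (limma, adjusted p = 0.00172), made of -1.22 in diapaused ICM and -2.05 in epiblast. Psmb10, the inducible subunit of immune cells, rose in epiblast to 5.17 and 4.12 (1.23 ± 0.23). Of 25 heat shock chaperone genes 6 were shared lower (24%) and 0 higher, while the median was 0.0427. Stip1, for a co-chaperone that links Hsp70 and Hsp90, was at 269.9, 289.8 and 213 in ICM, 79.6, 84.4 and 87.5 in diapaused ICM and 108 and 116 in epiblast (-1.39 ± 0.18), and Ahsa1, for an activator of Hsp90, at 214, 179.9 and 175 in ICM, 125, 139 and 114 in diapaused ICM and 71.3 and 71.1 in epiblast (-0.99 ± 0.18).

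Nutrient-sensing genes were close to the shares of all genes, 7.85% higher and 7.53% lower. Of 46 mTORC1 and AMPK genes 4 were shared higher (8.7%, and 2 genes without ICM replicate 1 or 2) and 5 lower (10.9%). Mtor, for the growth kinase whose inhibition brings blastocysts into a diapause-like pause, was at 5.41, 4.83 and 4.83 in ICM, 6.11, 2.77 and 3.77 in diapaused ICM and 4.24 and 3.198 in epiblast and was not called (-0.31 ± 0.23, adjusted p = 0.39). Rragd, for a Rag GTPase that carries amino acid signals to mTORC1, was at 5.27, 1.803 and 2.904 in ICM, 26.4, 15.9 and 17.1 in diapaused ICM and 37.98 and 36.1 in epiblast. It was above ICM in all later libraries (2.76 ± 0.29, adjusted p = 0.000422, with 2.31 in diapaused ICM and 3.21 in epiblast). Myc was at 9.33, 7.304 and 13.03 in ICM, 28.6, 20.6 and 11.2 in diapaused ICM and 12.3 and 6.16 in epiblast (0.39 ± 0.34, adjusted p = 0.469), and Mycn was called higher (1.63 ± 0.42, adjusted p = 0.0284) through epiblast, where its libraries were 52.2 and 13.5 against 3.72, 1.69 and 4.88 in ICM and 5.61, 4.42 and 5.29 in diapaused ICM.

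Cell division genes were read against the 7.53% of all genes that were shared lower and the 7.85% that were shared higher. Of 34 genes of G2 and mitosis 5 were shared lower (14.7%; 9 with equal sums, 2 without ICM replicate 1 or epiblast replicate 2, and 3 without ICM replicate 2, ICM replicate 3 or epiblast replicate 1) and 0 higher, with a median difference of -0.974 in diapaused ICM and 0.391 in epiblast. Pttg1, for securin, was lower in every later library, at 148, 112 and 132 in ICM, 36.9, 29.1 and 19.5 in diapaused ICM and 9.49 and 14.4 in epiblast (-2.78 ± 0.26, adjusted p = 0.000212, with -2.19 in diapaused ICM and -3.36 in epiblast). Of 47 DNA replication genes 6 were shared lower (12.8%; 1 without epiblast replicate 1, and 2 without ICM replicate 1, ICM replicate 3 or epiblast replicate 2) and 2 higher (4.26%). The replication licensing inhibitor Gmnn was at 58.2, 76.2 and 58.8 in ICM, 32.6, 38.9 and 28.5 in diapaused ICM and 22.9 and 23.1 in epiblast (-1.18 ± 0.20). Of 23 genes of G1 control, 4 were shared higher (17.4%; 2 without ICM replicate 1, ICM replicate 3 or either epiblast library) and 1 lower. Among them Ccnd2, for a G1 cyclin, was near 0 in ICM and at 4.15, 3.701 and 5.28 in diapaused ICM and 5.17 and 5.69 in epiblast (2.35 ± 0.18, adjusted p = 7.49e-05). Of 14 BCL2 family genes, 3 were shared higher (21.4%; 1 without ICM replicate 2 or epiblast replicate 1) and 0 lower, and Bak1, for a pore-forming protein of apoptosis, was at 0.381, 0.0946 and 0.184 in ICM, 3.68, 4.26 and 3.48 in diapaused ICM and 3.19 and 5.63 in epiblast (2.05 ± 0.21).

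Among genes that fell in steps from ICM through diapaused ICM to epiblast, those with the largest lesser differences beside Dppa3, Gabarapl2 and Dppa2 were Tmem41b, for a lipid scramblase used in autophagy, and Tmem231, for a protein of the ciliary transition zone. Tmem41b was at 144, 208 and 143 in ICM, 28.1, 23.2 and 30.2 in diapaused ICM and 13.4 and 9.42 in epiblast (-3.14 ± 0.22, adjusted p = 4.91e-05, with -2.55 in diapaused ICM and -3.74 in epiblast) and Tmem231 at 35.6, 32.0 and 33.2 in ICM, 3.58, 5.45 and 6.16 in diapaused ICM and 2.57 and 1.52 in epiblast (-3.03 ± 0.22, adjusted p = 5.24e-05, with -2.54 in diapaused ICM and -3.53 in epiblast). Tmem231 and Gabarapl2 are neighbours among the tested genes in the RefSeq order. By the same measure, genes lowest in diapaused ICM, with epiblast between, were led by Pramel4, Mgarp, Gca, Hmgn5 and Oraov1. Hmgn5, for a nucleosome-binding protein, was at 698, 229 and 667 in ICM, 48.0, 44.4 and 57.2 in diapaused ICM and 130.2 and 178 in epiblast. ICM replicate 2 was well below the other ICM libraries but above every later one. Its average difference was -2.43 ± 0.37 (limma, adjusted p = 0.00281), made of -3.23 in diapaused ICM and -1.63 in epiblast. Gca, for the calcium-binding protein grancalcin, was at 29.5, 18.7 and 37.5 in ICM, 0.548, 1.16 and 1.56 in diapaused ICM and 8.105 and 7.85 in epiblast (-2.73 ± 0.26, adjusted p = 0.000276, with -3.80 in diapaused ICM and -1.67 in epiblast), and Mgarp, a mitochondrial protein gene, was at 19.13, 16.6 and 19.5 in ICM, 0.207, 0.0574 and 0.0487 in diapaused ICM and 4.95 and 0.725 in epiblast, with unequal epiblast libraries. Oraov1 was at 10.1, 12.95 and 11.6 in ICM, 1.17, 0.6798 and 0.884 in diapaused ICM and 4.08 and 3.19 in epiblast (-2.08 ± 0.18).

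**Figure D5:**
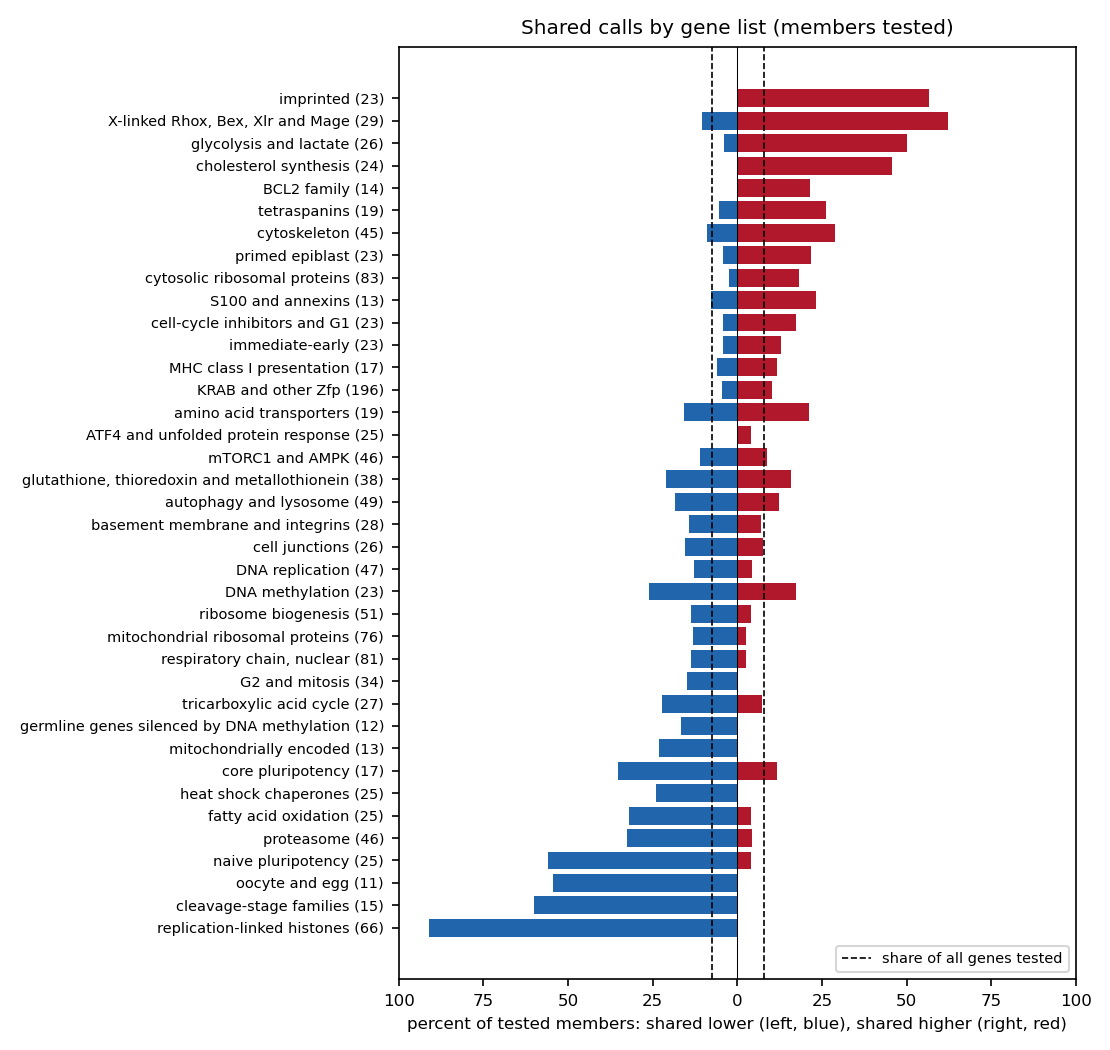
For each of 38 gene lists, bars give the percent of tested members (number in brackets) that were shared lower to the left in blue and shared higher to the right in red, and dashed lines mark the 7.53% and 7.85% of all tested genes. Histone, cleavage-stage, oocyte and naive pluripotency lists reach furthest left and X-linked, imprinted, glycolysis and cholesterol lists furthest right, while many lists lie near the lines or reach past both. For the cleavage-stage, oocyte and X-linked lists the reach partly reflects the filter.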

How the data were processed

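RNA of 8 pools of embryonic tissue was amplified with the WT-Ovation Pico kit and sequenced on an Illumina platform, per the labels' protocols. The deposited table holds a signal per gene, labelled adjusted TPM by the authors. The adjustment itself is not described in the sources used here, and column sums differ between libraries, so they were treated as a normalized signal and the depth behind them is unknown. The submitters' processing notes name Bowtie 0.12.5, DESeq and mm9 without saying what each was used for. The labels call the replicates biological.

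A gene was tested where 2 or more libraries reached a value of 1. limma 3.58.1 (R 4.3.3) fitted log2(value + 1) with 1 mean per group and a variance trend. The main contrast was the average of the 2 later group means against ICM, with Benjamini-Hochberg adjustment over all genes tested and a threshold of 0.05. The script was tested on simulated data.

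Named genes were the 12 highest and 12 lowest shared genes by the lesser difference (no overlap with ICM, a group mean of at least 10, no predicted symbols), 5 per direction and order of the later groups, up to 4 per list and direction by adjusted p, and 18 fixed genes. The other X-linked Bex and Tceal genes, Rhox6, Rhox9, H19, the histone variants, Slbp, Hist1h4f, Hist1h3e and the predicted genes were added after their values were seen. The members and the 44 gene lists were chosen with earlier results of these data known, so a list's count is a description, set beside the share of all tested genes. Replicate numbers were not used to pair the samples in the main fit. Promoters came from the RefSeq table and transcripts from GENCODE M21, and a genome of the files' build was not used here. The alternatives were other pseudocounts, filters, scalings, variance models, contrast weights, a minimum fold, a replicate block and leaving out each library.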

Additional observations from a re-analysis of the deposited data

Results flagged for a closer look

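The average comparison called 341 genes whose later groups lay on opposite sides of ICM. For all 341 the difference between epiblast and diapaused ICM was itself called (limma, adjusted p under 0.05). With opposite signs that difference is always larger than the average one, so its call was given in advance and is no separate result. Esrrb, a regulator of naive pluripotency, was at 23.6, 40.8 and 26.3 in ICM, 34.9, 36.2 and 35.5 in diapaused ICM and 2.24 and 2.23 in epiblast. Its difference from ICM was 0.27 in diapaused ICM (adjusted p = 0.534) and -3.23 in epiblast (adjusted p = 6.8e-05), and -3.50 between the later groups (adjusted p = 6e-05). Klf4, another factor of the naive state, was at 21.96, 15.5 and 22.1 in ICM, 24.04, 38.4 and 36.3 in diapaused ICM and 0.9297 and 0.509 in epiblast. All diapaused libraries stood above the ICM ones and both epiblast libraries were near 0, with differences of 0.69 (adjusted p = 0.118) and -3.59 (adjusted p = 5.84e-05). Dnmt3a, for a methyltransferase that sets new DNA methylation, was at 70.3, 54.2 and 74.1 in ICM, 39.3, 69.0 and 80.7 in diapaused ICM and 295 and 225 in epiblast, with differences of -0.12 (adjusted p = 0.849) and 1.96 (adjusted p = 0.00327). Its average call was lost in 12 of 20 alternatives. In all 3 genes the diapaused difference alone did not pass and the epiblast difference did.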

How the results depend on the processing

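No named gene that was called reversed its direction under any alternative run, and the other called genes were not checked for this. Of the named genes not called, Sox17 (-0.73 to 0.11), Sox2 (-0.14 to 0.61) and Dnmt3l (-0.09 to 0.44) had average differences on both sides of 0. The median over all tested genes, 0.0994, was -0.111 with equal sums and -0.0275 with a mean of at least 5, where 28.8% and 43.8% of shared calls were higher in place of 51%. Without the filter on low values there were 1911 calls, 835 shared higher and 818 shared lower genes, with diapaused ICM further for 106 of the higher and 35 of the lower and epiblast further for 294 of the lower. With a mean of at least 5 there were 776 shared higher genes, with epiblast further for 312 and diapaused ICM for 108, and with equal sums 777, 339 and 113. Tested against a fold of 1.5 there were 736 calls, 287 higher (112 with epiblast further, 33 with diapaused ICM further) and 387 lower (121 and 6). Leaving out single libraries gave 1550 to 2810 calls, 683 to 1251 shared higher and 716 to 1279 shared lower genes, with epiblast further for 237 to 472 and 192 to 510 and diapaused ICM further for 79 to 176 and 18 to 85. The number of calls depended on which library was left out. It was 2680 to 2810 without a diapaused library, 1760 to 2293 without an ICM library, and 1550 and 2153 without epiblast replicates 1 and 2. The cause of the lower counts was not tested for any alternative. With the replicate number as a block there were 2657 calls (1182 shared higher, 1156 lower), and the lower genes with diapaused ICM further numbered 52. Same-numbered ICM and diapaused libraries had correlations of their deviations from the group means of 0.0175, 0.103 and 0.131, and same-numbered pairs with epiblast -0.0645 to 0.0333. Among the diapaused libraries, ICM replicates 2 and 3 correlated best with their own number and ICM replicate 1 with another (0.033). These small correlations cannot decide whether the numbers pair the samples. Of the named genes, Id2, Pou5f1, Mdh1, Pcna, Acsl4, Dnmt3a, Cd9, Gins3, Slc7a7, Acta2, Actb and Mrps36 lost their calls in 10 or more alternatives. The 24 chosen for size lost theirs in none, which their choice from the same values largely set in advance. Without read counts, no limit for genes at or near 0 can be given, and with 2 epiblast libraries the spread of that group rests mostly on the pooled estimate.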

Other observations

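Genes known only by predicted symbols were left out of the choice of named genes, although they made up 29.4% of the shared higher and 22.9% of the shared lower genes, against 39.4% of all tested. Some had lesser differences as large as those of the named genes. Gm12617 was at 30.3, 77.4 and 50.2 in ICM, 0.0375, 0.169 and 0.0448 in diapaused ICM and 0.221 and 0.0776 in epiblast, with an average difference of -5.49 ± 0.28 (limma, adjusted p = 7.39e-06), and Gm13102, which lies between Pramel4 and Pramel5 among the tested genes, was at 75.8, 81.2 and 91.6 in ICM, 1.31, 0.874 and 0.7997 in diapaused ICM and 2.05 and 2.83 in epiblast (-5.01 ± 0.19). Gm5514 rose and was at 1.26, 1.23 and 1.23 in ICM, 17.99, 18.1 and 32.1 in diapaused ICM and 142 and 111 in epiblast (4.59 ± 0.23). These 3 were chosen after their values were seen, and many predicted genes are copies of others, so their reads may be shared. The longest runs of tested neighbours that were all shared higher held 7 genes each, nearly all with predicted symbols. Runs of tested neighbours with the same shared direction held 20.6% of the shared higher and 26.7% of the shared lower genes. No expectation for such runs was computed.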
